A study of Mus musculus with 10 samples.

Results

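Iron transport and storage was followed through 8 genes, chosen by name and found in the count table by their Ensembl identifiers: Slc11a1, Slc11a2, Slc40a1, Tfrc, Trf, Fth1, Ftl1 and Hmox1. They were chosen with earlier results of these data known. All 8 were among the 56884 genes of the table, and all 8 passed the filter on low counts in the comparison of DHT-treated with void-treated females. Bulk mRNA sequencing was performed on hippocampi of 10 female P301S mice (PS19, labelled hTau), with 1 library for each mouse. All 10 mice carried the human mutant Tau transgene under the mouse Prnp promoter and kept their ovaries, and mice without the transgene were not analysed here. At 6 months of age, 5 females received a subcutaneous implant of SILASTIC tubing packed with 10 mm of dihydrotestosterone (DHT), an androgen that aromatase cannot convert to estrogen. The other 5 received an empty (void) implant. After 12 weeks, at 9 to 9.5 months, the hippocampi were collected.

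Cells take up iron bound to transferrin (Trf) through the transferrin receptor (Tfrc). The divalent metal transporter DMT1 (Slc11a2) then moves the iron out of the endosome, and its relative NRAMP1 (Slc11a1) does so at the phagosome of macrophages and microglia. Surplus iron is stored in a shell of ferritin heavy (Fth1) and light (Ftl1) chains or leaves the cell through ferroportin (Slc40a1), and heme oxygenase 1 (Hmox1) frees iron from heme. In brain, transferrin is made mainly by oligodendrocytes and choroid plexus epithelium, and microglia gather iron around damaged tissue.

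Total counts ranged from 27188854 to 47113661 in void-treated mice and from 33523527 to 45947784 in DHT-treated mice. The 7 neuron markers, led by Map2, Snap25 and Syt1, summed to 6719 to 7455 CPM (counts scaled to a common library size after TMM normalization) with void and 5844 to 6700 CPM with DHT. Hemoglobin and other blood genes, a source of heme, summed to at most 2.68 CPM in any perfused mouse. Choroid plexus genes differed widely. The sum of 10 markers, led by Enpp2 and Ttr, ran from 359 to 3225 CPM with void, where replicate 9 was the highest, and from 3847 to 5658 CPM with DHT. The sum of 7 microglia markers was 411 to 481 CPM with void and 582 to 852 CPM with DHT, and 5 of the 7 rose (among them Csf1r and Cx3cr1). The 6 astrocyte markers, led by Slc1a3, Gfap and Aldoc, summed to 1920 to 2539 CPM with void and 2430 to 3453 CPM with DHT, and Gfap was the 1 that rose (log2 fold change 1.18, adjusted p = 0.00749). All void mice carry lower library numbers than all DHT mice, and an effect of that order cannot be told apart from DHT. In bulk tissue, more cells of a type and more RNA per cell cannot be told apart either.

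Cellular iron is sensed at the mRNA by iron regulatory proteins, which bind a hairpin called the iron-responsive element (IRE). Bound in the 5′ UTR it blocks translation, and bound in the 3′ UTR it protects the transcript from decay. The hairpins are shown because they link the storage, export and uptake genes to this control. A bulged C, a stem of 5 pairs (G-T pairs allowed) and a CAGTGN loop, 17 bases in all, were searched on the sense strand in the UTRs of GENCODE M21 coding transcripts. The loop is in capitals and the sequences read 5′ to 3′, the first 3 from 5′ UTRs and the last 4 from the 3′ UTR of Tfrc.
Fth1: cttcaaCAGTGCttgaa
Ftl1: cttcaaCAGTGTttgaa
Slc40a1: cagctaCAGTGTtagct
Tfrc, site 1: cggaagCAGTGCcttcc
Tfrc, site 2: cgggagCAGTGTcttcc
Tfrc, site 3: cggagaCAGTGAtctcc
Tfrc, site 4: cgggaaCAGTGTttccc
Such a match was present in a 5′ UTR of 0.142% and in a 3′ UTR of 0.59% of 21877 genes. No match of this exact form was found in Slc11a1, Slc11a2, Trf or Hmox1. The element known in some Slc11a2 transcripts has an extra bulge, which this form does not allow.

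With DHT, 3 of the 8 genes rose (adjusted p under 0.05) and 0 fell. They were Slc11a1, Hmox1 and Trf, the transporter of the phagosome, the enzyme that opens heme and the iron carrier. Over all 17622 genes tested, 5.19% rose and 0.25% fell by the same rule (5.44% either way). Because the 8 genes were chosen with earlier results of these data known, the count beside this share is a description only. No member with a negative log2 fold change had an unadjusted p under 0.05 either, and DESeq2 called 0 lower as well. The median log2 fold change was 0.26 over the 8 genes and 0.0094 over all genes tested. The groups did not overlap for these 3 genes, as for 5.39% of all genes with DHT above void and 0.88% with DHT below. None of the 4 genes with an IRE match passed in the main edgeR fit, and the 3 that rose were among the 4 without, which describes these genes and was not tested. DESeq2 called 4 of the 8 genes higher, these 3 and Ftl1, which has a match. In edgeR, Ftl1 passed with library size alone (adjusted p = 0.0442), without DHT replicate 2 (0.0399) and without void replicate 9 (0.0339). Without DHT replicate 1, DHT replicate 3, void replicate 4 or void replicate 11, 2 genes rose in place of 3, and without DHT replicate 2 or void replicate 9, 4 rose. With the choroid plexus score or the microglia score of each mouse added to the model, 0 of the 17622 genes passed. Slc11a1, Hmox1 and Trf then had log2 fold changes of 1.30, 0.80 and 0.63 with the choroid plexus score (all at an unadjusted p under 0.05) and of 1.29, 0.59 and 0.54 with the microglia score (Slc11a1 alone at an unadjusted p under 0.05). The marker sums of both lists did not overlap between the groups, so these fits can hardly separate a score from DHT.

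**Figure D1:**
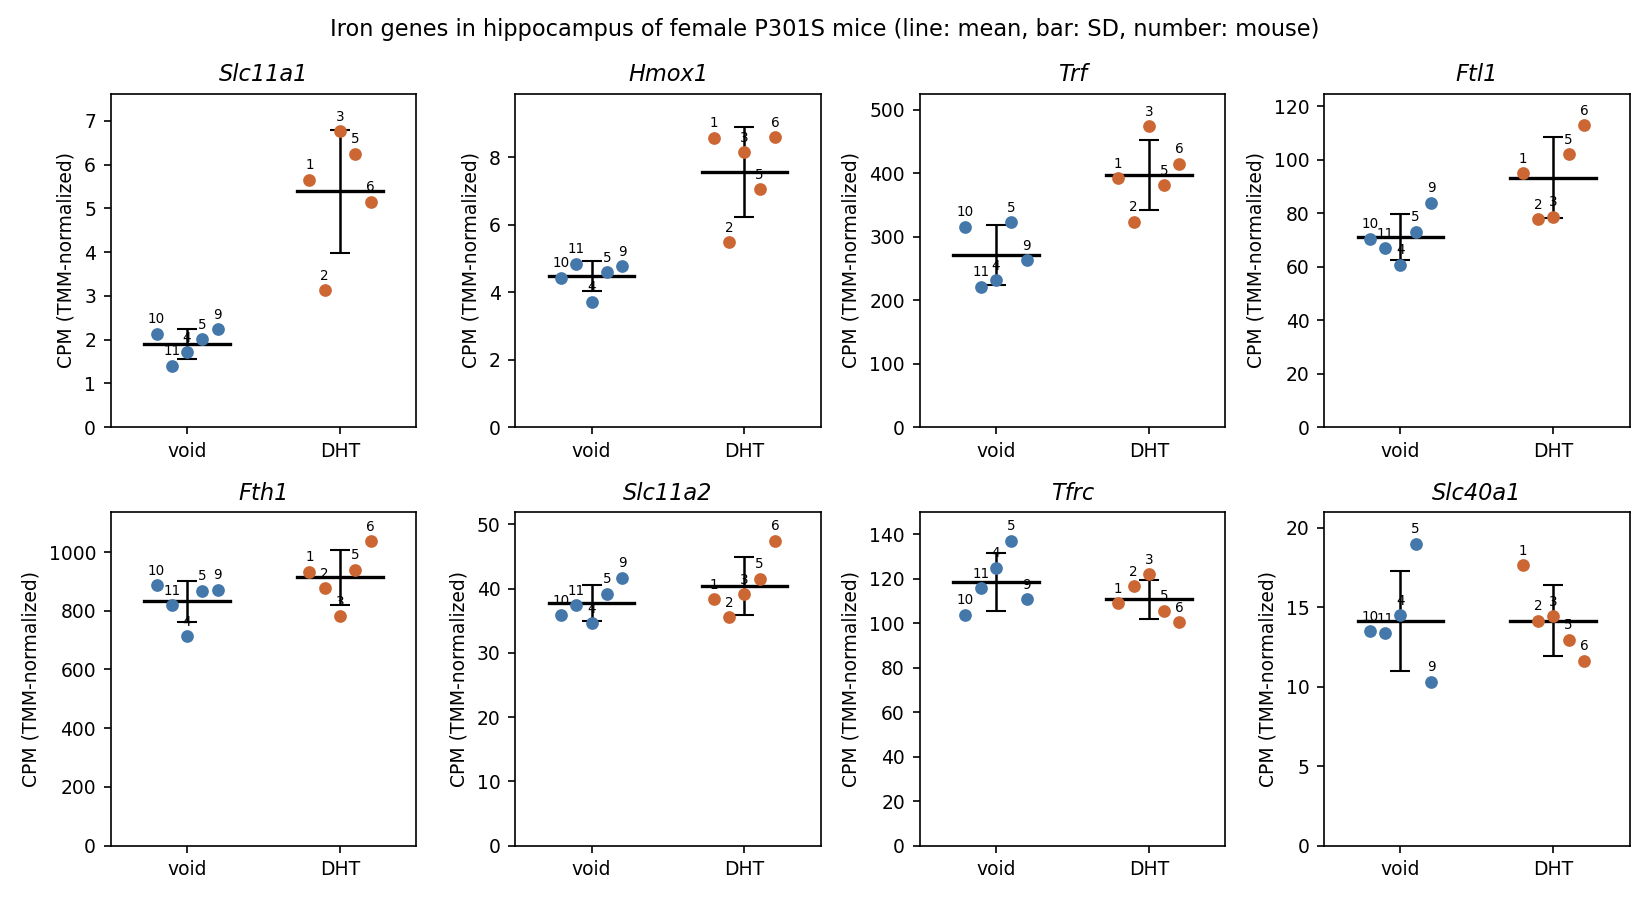
Level of each of the 8 genes in CPM (y axis, from 0) in 5 void-treated and 5 DHT-treated females; points are mice numbered by replicate, lines are means and bars are SD. The DHT points of Slc11a1, Hmox1 and Trf all lie above the void points, by a narrow margin for Trf, while the groups overlap for the other 5 genes.

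Slc11a1 (ENSMUSG00000026177) changed most. Its level was 2.14, 1.41, 1.71, 2.01 and 2.23 CPM in void replicates 10, 11, 4, 5 and 9, from 47 to 81 counts per library. It was 5.66, 3.13, 6.77, 6.25 and 5.15 CPM in DHT replicates 1, 2, 3, 5 and 6. The lowest DHT value, that of replicate 2, exceeded the highest void value. Slc11a1 was 2.84-fold higher with DHT (log2 fold change 1.51, standard error 0.21, edgeR adjusted p = 0.00626), and it ranked 19th of all genes by p. Of the 8 genes it alone also passed a limit of 1 on the log2 fold change, which 2.11% of all genes passed upward and 0.0227% downward. In the 10 fits that omit 1 mouse, it stayed between 1.39 and 1.65 on the log2 scale and passed every time.

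Slc11a1 is a gene of phagocytes, so its level was set against microglia markers within each mouse. The log2 CPM of Slc11a1 minus the mean of the 7 microglia markers was -4.41 ± 0.215 with void and -3.60 ± 0.385 with DHT (mean ± SD of 5 mice). The difference was 0.81 (exact permutation test, two-sided, p = 0.00794, adjusted p = 0.0423 over 8 such differences), larger than the variation among mice, and 5 of 5 DHT-treated mice lay above the highest void-treated mouse. The smallest p that 5 mice against 5 allow is 0.00794. The 7 markers did not move by the same amount, with log2 fold changes from 0.16 (P2ry12) to 1.30 (C1qa). The difference therefore depends on which markers are averaged, and was 0.82 with the list median. Slc11a1 against C1qa alone was not tested. Neutrophil markers, which mark the other main source of NRAMP1, were near 0, with 5 genes summing to 0.217 to 1.07 CPM with void and 0.148 to 0.778 CPM with DHT. Of 5 tested markers of border macrophages, such as Stab1 and Mrc1, 0 passed in edgeR or in DESeq2. In each, 1 had an unadjusted p under 0.05, which was Ms4a7 (4 to 51 counts per library). Its log2 fold change was 1.12 in edgeR, and the median over the 5 was 0.018.

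A stretch of the Slc11a1 promoter is shown because it holds a single half-site AGGTCA, the DNA word read by TR4 and many other nuclear receptors. Binding of TR4 or of any other receptor to it was not tested. It runs from 200 to 101 bases before the RefSeq start site, at chr1:74375003-74375102 of GRCm38.p6 on the plus strand, with the half-site in capitals.
Slc11a1 promoter: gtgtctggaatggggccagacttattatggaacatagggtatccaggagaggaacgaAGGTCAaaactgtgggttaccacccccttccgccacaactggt
On either strand, AGGTCA was present in 16.3% of 32851 RefSeq promoters (250 bases before to 50 after the start site). The promoter table held 4 of the 8 genes (Slc11a1, Ftl1, Tfrc and Fth1). Among these it was the only match to AGGTCA, to the androgen receptor half-site TGTTCT (in 19% of promoters), to the antioxidant response core TGACNNNGC (12.4%) or to the PU.1 word GAGGAAGT (3.2%).

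Hmox1 (ENSMUSG00000005413), the inducible heme oxygenase, also rose. It was at 4.43, 4.85, 3.72, 4.60 and 4.78 CPM in void replicates 10, 11, 4, 5 and 9, and at 8.58, 5.48, 8.15, 7.06 and 8.60 CPM in DHT replicates 1, 2, 3, 5 and 6. The groups did not overlap, and DHT replicate 2 was again the lowest of its group. Its rise was 0.76 in log2 units (standard error 0.14, adjusted p = 0.0102), which lay between 0.68 and 0.86 and passed in every fit without 1 mouse. Relative to the microglia markers of the same mouse, however, Hmox1 was at -3.18 ± 0.197 with void and -3.09 ± 0.239 with DHT. That difference of 0.10 was smaller than the spread between mice (exact permutation test, p = 0.492). The microglia markers themselves had a median log2 fold change of 0.55, from 0.16 (P2ry12) to 1.30 (C1qa). The difference for Hmox1 therefore also depends on which markers are averaged, and was 0.11 with the list median. Astrocytes also make heme oxygenase, and the part of the astrocyte markers, of which Gfap rose, was not tested.

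Trf (ENSMUSG00000032554) was at 316, 222, 232, 323.3 and 263 CPM in void replicates 10, 11, 4, 5 and 9. In DHT replicates 1, 2, 3, 5 and 6 it was at 392.5, 323.5, 474, 381 and 415 CPM. The groups were apart, but only just, since DHT replicate 2 and void replicate 5 were nearly equal. The rise of Trf with DHT was 0.55 in log2 units, with a standard error of 0.12 and an adjusted p of 0.0234. The call was lost without DHT replicate 1, DHT replicate 3, void replicate 4 or void replicate 11, with adjusted p values of 0.0640, 0.0608, 0.0664 and 0.0805.

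Oligodendrocytes and choroid plexus both make transferrin, and their markers behaved differently. None of the 7 oligodendrocyte markers, Mbp and Mobp among them, passed in edgeR or DESeq2 (unadjusted p under 0.05 for 2 and 1), and their sum was 3183 to 4380 CPM with void and 3918 to 4256 CPM with DHT. Trf minus the oligodendrocyte markers was -0.26 ± 0.177 with void and 0.14 ± 0.206 with DHT, a difference of 0.39 on the log2 scale (exact permutation test, p = 0.0238, adjusted p = 0.0476). All 5 DHT-treated mice lay above the void mean, and 3 lay above the highest void mouse. The difference kept its direction but passed in 0 of the 10 comparisons without 1 mouse (adjusted p from 0.0635 to 0.0952). With the median of the marker list in place of the mean, this difference was 0.31 with an adjusted p of 0.140. The 10 choroid plexus markers had a median log2 fold change of 2.12, of which edgeR called 0 (9 at an unadjusted p under 0.05) and DESeq2 called 5. Trf minus these markers was lower with DHT by 2.17 on the log2 scale (exact permutation test, p = 0.0317, adjusted p = 0.0508). Since Trf itself rose, this difference is the larger rise of the choroid plexus markers seen from the other side. It is no separate result on Trf. Void replicate 9, with the most choroid plexus RNA of the void mice, had 263 CPM of Trf, while void replicate 5, with a marker sum of 388 CPM, had the most Trf of that group. Void replicate 11 went the other way, with the lowest marker sum (359 CPM) and the lowest Trf (222 CPM) of the void mice. Whether choroid plexus RNA carries a part of the Trf rise was not tested. With the choroid plexus score in the model, the log2 fold change of Trf was 0.63, against 0.55 without it (adjusted p = 0.608, in a fit where 0 of 17622 genes passed).

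**Figure D2:**
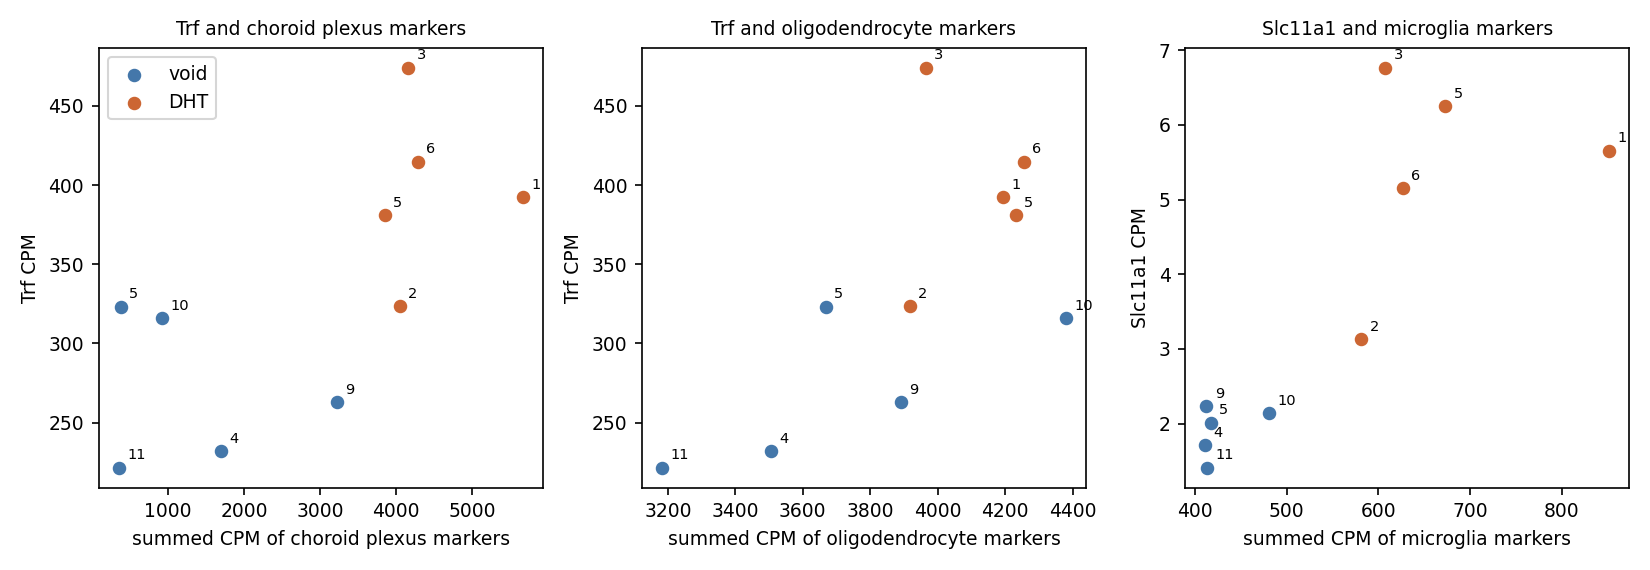
Trf in CPM against the summed CPM of choroid plexus markers (left) and of oligodendrocyte markers (middle), and Slc11a1 against microglia markers (right), with 1 point per mouse numbered by replicate; the axes do not start at 0. Void replicate 9 is close to the DHT-treated mice in choroid plexus markers but has 263 CPM of Trf, below all 5 of them. Void replicate 11 is the lowest mouse for both choroid plexus markers and Trf.

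The receptor for transferrin did not pass the test. Tfrc (ENSMUSG00000022797), which is dense on brain endothelium and neurons, was at 104, 116, 125, 137 and 111 CPM in void replicates 10, 11, 4, 5 and 9. It was at 109, 117, 122, 106 and 100.3 CPM in DHT replicates 1, 2, 3, 5 and 6. The groups overlapped, with DHT replicate 6 the lowest and void replicate 5 the highest of all 10 mice. Its log2 fold change was -0.10 with a 95% interval from -0.27 to 0.08 (adjusted p = 0.621). Against 7 endothelial markers, such as Flt1 and Slco1a4, the within-mouse difference moved by -0.09 (exact permutation test, p = 0.286).

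Slc11a2 (ENSMUSG00000023030), the transporter of the endosome, was at 35.8, 37.4, 34.6, 39.2 and 41.7 CPM in void replicates 10, 11, 4, 5 and 9, and at 38.3, 35.6, 39.1, 41.6 and 47.4 CPM in DHT replicates 1, 2, 3, 5 and 6. The groups overlapped, with DHT replicate 6 the highest. Its log2 fold change was 0.10, with a 95% interval from -0.08 to 0.28 (adjusted p = 0.631). The interval of its relative Slc11a1 ran from 1.06 to 1.96, while the difference between the 2 genes was not tested.

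Slc40a1 (ENSMUSG00000025993), the only known cellular iron exporter, was at 13.5, 13.4, 14.5, 19.01 and 10.3 CPM in void replicates 10, 11, 4, 5 and 9. It was at 17.6, 14.2, 14.4, 12.96 and 11.6 CPM in DHT replicates 1, 2, 3, 5 and 6. The 5 DHT values lay inside the range of the void values. The log2 fold change was 0.0032 with a 95% interval from -0.33 to 0.33 (adjusted p = 0.996), and its sign turned with the scaling (-0.02 with DESeq2 size factors). Relative to the microglia markers, Slc40a1 was lower with DHT by 0.62 on the log2 scale (-1.56 ± 0.377 with void, -2.18 ± 0.191 with DHT, exact permutation test, p = 0.0159, adjusted p = 0.0423), with 5 of 5 DHT-treated mice below the void mean. Since Slc40a1 itself was level, this difference is the rise of the microglia markers seen from the other side and is no separate result on Slc40a1. Relative to endothelial markers, it differed by 0.02 (exact permutation test, p = 0.873).

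Fth1 (ENSMUSG00000024661), the ferritin chain that oxidizes iron for storage, did not pass. It was at 887, 819, 713, 868 and 872 CPM in void replicates 10, 11, 4, 5 and 9, and at 933, 876, 782, 940.0 and 1036 CPM in DHT replicates 1, 2, 3, 5 and 6, with 3 DHT-treated mice above the highest void-treated mouse. Its log2 fold change was 0.14, with a 95% interval from -0.04 to 0.31 (adjusted p = 0.465). Ftl1 (ENSMUSG00000050708), the chain that nucleates the iron core, was at 70.5, 67.1, 60.7, 73.2 and 84.1 CPM in void replicates 10, 11, 4, 5 and 9. It was at 95, 77.8, 78.7, 102 and 113 CPM in DHT replicates 1, 2, 3, 5 and 6. The groups overlapped only through void replicate 9 and DHT replicates 2 and 3. In log2 units the difference of Ftl1 was 0.39 (standard error 0.11, adjusted p = 0.0733), short of the threshold, and DESeq2 gave 0.37 with an adjusted p of 0.0371.

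The balance of the ferritin transcripts could be read within each mouse, while the protein chains were not measured. The ratio of CPM is not corrected for transcript length. The ratio of Fth1 to Ftl1 CPM was 12.6, 12.2, 11.7, 11.9 and 10.4 in void replicates 10, 11, 4, 5 and 9, and 9.82, 11.3, 9.93, 9.21 and 9.17 in DHT replicates 1, 2, 3, 5 and 6. All 5 DHT-treated mice were below the void mean, and DHT replicate 2 was above void replicate 9. On the log2 scale the ratio was lower with DHT by 0.25 (3.55 ± 0.107 against 3.30 ± 0.119, exact permutation test, p = 0.0159, adjusted p = 0.0423). With 1 mouse left out at a time, this difference and those of Slc11a1 and Slc40a1 against microglia kept their direction, with adjusted p values from 0.0318 to 0.0847, and passed only without DHT replicate 2 or without void replicate 9. At 4 mice against 5 the smallest p is 0.0159. For Slc11a1 minus microglia the groups did not overlap, so its own p was at this smallest value each time. Its adjusted p then turned on the p values of the other differences. Ferritin genes have processed copies that can share reads. In this table they held few counts, at most 30 in any library for Ftl1-ps1 and 13 for Fth-ps2, against at least 1910 for Ftl1 and 24045 for Fth1. The treatment of multi-mapped reads is not given, so these counts cannot show whether shared reads were dropped.

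**Figure D3:**
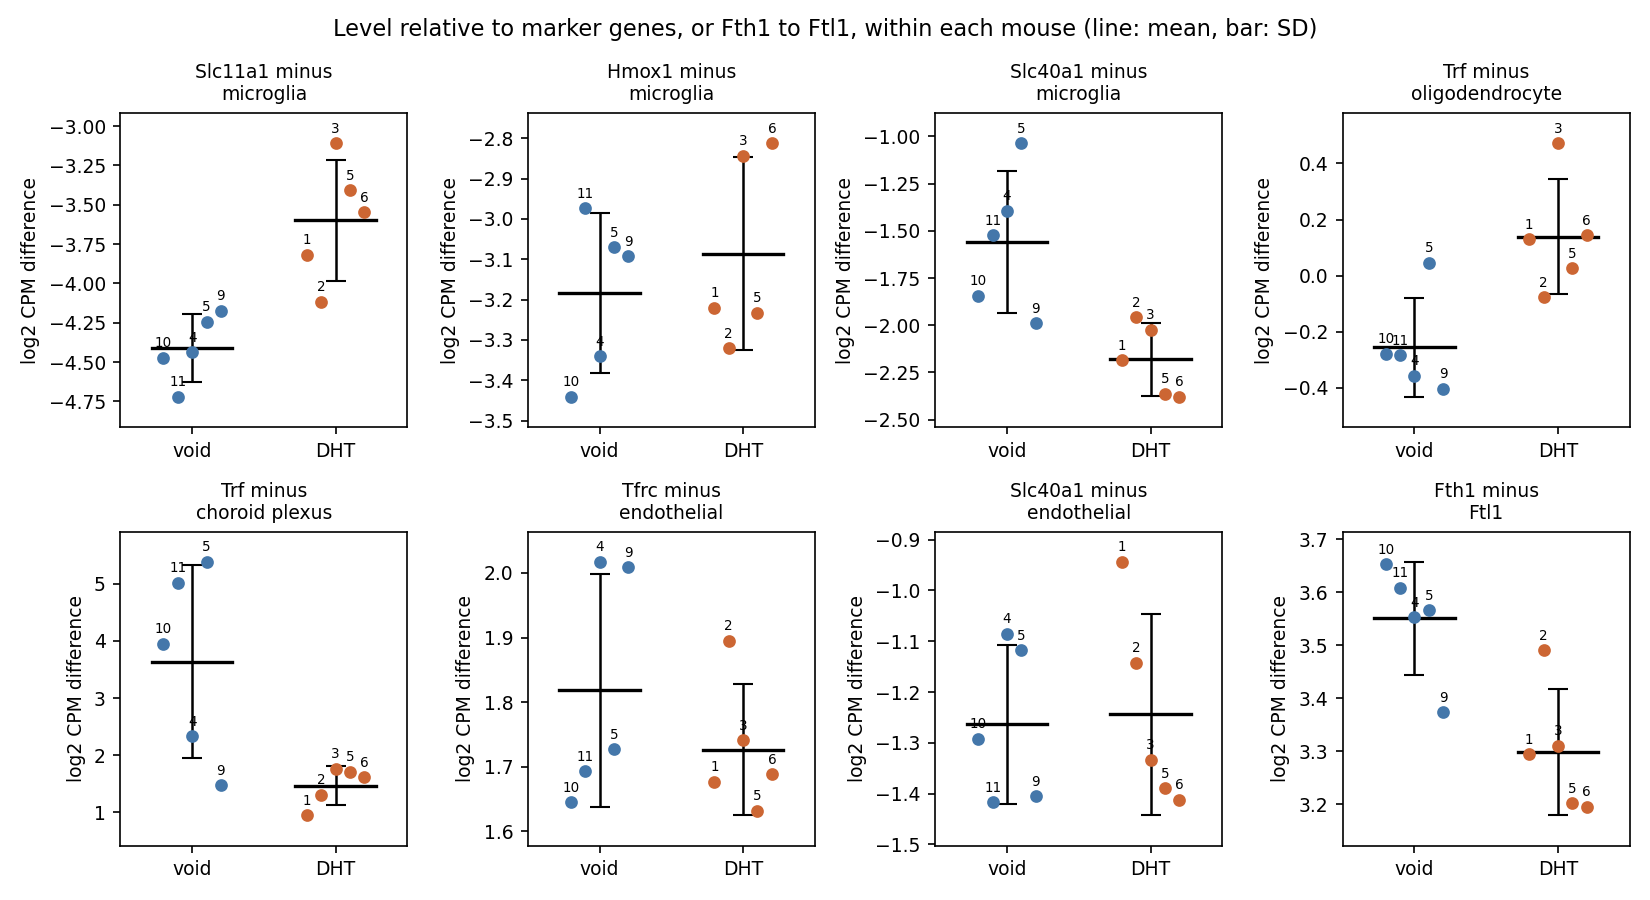
Difference in log2 CPM within each mouse (y axes, not starting at 0) between a gene and the mean of a marker list, or between Fth1 and Ftl1, for 5 void-treated and 5 DHT-treated females; points are mice, lines are means and bars are SD. Slc11a1 minus microglia is higher with DHT in all 5 mice, Hmox1 minus microglia overlaps between the groups, and Slc40a1 minus microglia and Fth1 minus Ftl1 are lower.

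Levels between genes were compared only per kilobase of exon (GENCODE M21 exon unions). In void-treated mice the order was Fth1 (240 ± 20.5 CPM per kilobase), Trf (81.7 ± 14.1), Ftl1 (53.1 ± 6.43), Tfrc (19.2 ± 2.09), Slc11a2 (5.94 ± 0.443), Hmox1 (2.56 ± 0.259), Slc40a1 (1.57 ± 0.349) and Slc11a1 (0.513 ± 0.0914; SD, n = 5 each). Storage and carrier transcripts thus stood at the top and the phagosome transporter at the bottom. Reads shared with the ferritin copies may have been dropped, so the place of Ftl1 in this order is uncertain. No neighbours in this order overlapped, but Hmox1 (lowest 2.13) and Slc40a1 (highest 2.11) nearly touched. With the longest coding transcript as the length, Slc40a1 (4.20) was above Hmox1 (2.85).

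DHT replicate 2 was the lowest DHT-treated mouse for 5 of the 8 genes (Slc11a1, Hmox1, Trf, Ftl1 and Slc11a2), and it also had the lowest sum of microglia markers in its group, at 582 CPM. By deviations from the group mean of log2 CPM over the 10 mice, the tested genes most like Slc11a1 were Tekt2 (r = 0.954, rho = 0.939), 2310034G01Rik (r = 0.938, rho = 0.709) and Il4i1 (r = 0.930, rho = 0.648). For Hmox1 they were Plekhd1 (r = 0.941, rho = 0.903), Kank2 (r = 0.927, rho = 0.903) and Smoc1 (r = 0.914, rho = 0.782). For Trf they were Mocos (r = 0.967, rho = 0.952), Pkd2l1 (r = 0.964, rho = 0.976) and Zfp36 (r = 0.949, rho = 0.903). These are the highest of 17621 correlations for each gene over mice that share depth and tissue makeup across genes, and are given as a description, with no test.

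Beyond the 8 genes, 75 other genes of iron handling were listed, and 66 of them passed the filter on low counts. With DHT, 8 of the 66 rose and 0 fell (0 fell at an unadjusted p under 0.05, and 0 in DESeq2), and the median log2 fold change was 0.10. The shares over all genes tested were 5.19% higher and 0.25% lower, and the counts by list are set beside the same shares. These lists too were chosen with earlier results of these data known, so the counts are a description only. Among 15 tested genes of uptake, reduction and export, 3 rose. They were the metalloreductase Steap2 (21.98 ± 6.33 CPM with void, 54.6 ± 8.98 with DHT), the ferric reductase Cybrd1 (5.56 ± 0.964 and 10.3 ± 1.52) and the ferritin receptor Scara5 (1.16 ± 0.921 and 4.29 ± 0.832). Their log2 fold changes were 1.31, 0.89 and 1.86, with adjusted p values of 0.00626, 0.00749 and 0.0221. For all 3, every DHT-treated mouse was above every void-treated mouse.

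Among 11 tested regulators, 3 rose as well. Bmp6, the ligand that induces hepcidin in liver, went from 11.8 ± 3.94 to 25.8 ± 3.83 CPM, a log2 fold change of 1.13 (adjusted p = 0.00937). Hfe, a partner of the transferrin receptor, went from 5.05 ± 0.969 to 9.50 ± 1.95 CPM, a log2 fold change of 0.92 (adjusted p = 0.0102). Nfe2l2, which encodes NRF2, the activator of Hmox1 and of antioxidant genes, was at 19.4 to 21.4 CPM with void and 24.9 to 38.0 CPM with DHT (log2 fold change 0.56, adjusted p = 0.0130). The hepcidin genes Hamp and Hamp2 had at most 1 count in any mouse. The iron regulatory proteins Aco1 and Ireb2, which bind the IRE, had log2 fold changes of 0.10 and -0.01 and did not pass.

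Of 16 tested heme genes, 1 rose, Flvcr2, a transporter first described for heme. It was at 3.13 ± 1.13 CPM with void and 5.62 ± 0.739 CPM with DHT (log2 fold change 0.84, adjusted p = 0.0381), and 1 DHT-treated mouse lay within the void range, while the constitutive oxygenase Hmox2 was at 0.06. Among 9 genes of lipid peroxidation, the defence against it and NRF2 response, Nqo1 rose, from 4.69 ± 0.930 to 9.85 ± 1.98 CPM (log2 fold change 1.07, adjusted p = 0.00733). Other NRF2 targets did not pass, with log2 fold changes of 0.01 for Gclc, -0.01 for Gclm, 0.09 for Txnrd1, -0.03 for Srxn1 and 0.17 for Slc7a11. Gpx4, which detoxifies lipid peroxides, was at 0.31 (adjusted p = 0.0770).

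None of 3 tested genes of ferritin loading and turnover passed in edgeR or DESeq2 (0 at an unadjusted p under 0.05 in either), with log2 fold changes of 0.13 for the iron chaperone Pcbp1 and 0.07 for the ferritin receptor of autophagy Ncoa4. None of 12 mitochondrial iron genes passed in either tool, with 1 at an unadjusted p under 0.05 in edgeR and 0 in DESeq2. The lowest p value there was that of the ferredoxin Fdx1, with a log2 fold change of 0.22. In 6 of the 8 other genes that rose (Steap2, Scara5, Bmp6, Hfe, Flvcr2 and Nqo1), void replicate 9 was the highest void-treated mouse, as it was for choroid plexus markers. With the choroid plexus score in the model, Steap2, Cybrd1, Bmp6, Hfe, Nfe2l2 and Nqo1 had an unadjusted p under 0.05, while Scara5 and Flvcr2 did not, and none of the 66 passed after adjustment. With the microglia score, Steap2, Bmp6 and Nqo1 had an unadjusted p under 0.05.

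**Figure D4:**
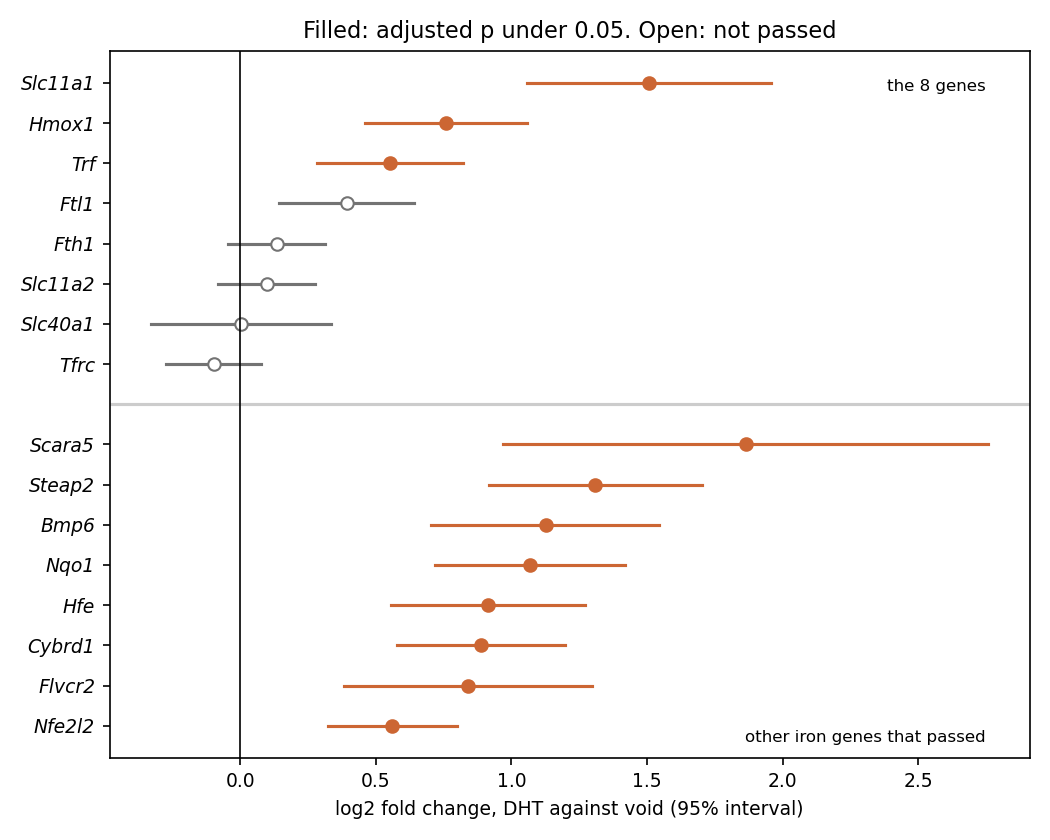
Log2 fold change of DHT-treated against void-treated females (x axis) with 95% intervals, for the 8 genes (top) and the 8 other iron genes that passed (bottom); filled points passed an adjusted p under 0.05 and open points did not. The fold changes of Slc11a1 (1.51), Hmox1 (0.76) and Trf (0.55) are filled, and the intervals of Fth1, Slc11a2, Slc40a1 and Tfrc cross 0.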

How the data were processed

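Hippocampal mRNA of 10 female P301S mice (5 void, 5 DHT) was sequenced in paired-end mode, with 1 library per mouse. The authors trimmed reads with HTStream and aligned them with STAR 2.7.10b, and deposited raw counts per gene. The methods name mm10 and the submitters' processing notes mm39, so no coordinates are given for the genes of the count table, and the 1 promoter stretch shown is placed on the RefSeq build. The counter, the annotation release, strand and the treatment of multi-mapped reads are not given in the sources used here. GENCODE M21 served for symbols, exon lengths and UTR sequences, and RefSeq (GRCm38.p6) for promoters.

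From the deposited counts, 17622 genes passed filterByExpr and were tested with edgeR 4.0.16 (TMM, robust quasi-likelihood test, Benjamini-Hochberg adjustment over all genes tested, called at an adjusted p under 0.05) in R 4.3.3. The script was tested on simulated data. The groups were taken from the labels. CPM are TMM-normalized, and log2 CPM use a prior count of 2. Within each mouse, 8 differences of log2 CPM were compared by two-sided exact permutation tests. A score is the mean over a marker list of log2 CPM, with each gene first centred and scaled across the mice. Total counts per library bound the precision, and Slc11a1 rests on 47 to 323 counts. Alternatives were DESeq2 1.42.0 and its size factors, library size alone, other count filters, marker scores as covariates, another prior count, list medians and leaving out each mouse.

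All 8 genes are named. Of the other iron genes, those that passed are named, or the 2 with the lowest p of a list with none. Further listed genes are named for their role, with their values known. Marker lists are named by their most abundant genes, a few genes that these rules would name are not reported here, and the genes most alike by the 3 highest correlations. The members and lists were chosen with earlier results of these data known.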

Additional observations from a re-analysis of the deposited data

Results flagged for a closer look

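Among 48 groups of 5 mice examined (the levels of the 8 genes and of the 8 other iron genes that rose, and the 8 within-mouse differences), 1 had a mouse that stood apart from the rest. For Trf minus the oligodendrocyte markers, void replicate 5 was the highest void mouse, and its gap to the next made up 0.721 of the range of the group, above the critical value of 0.71. Chance alone gives about 1 in 20 groups, or 2.4 of 48.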

How the results depend on the processing

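No paired analysis was possible because replicate number 5 is the only one found in both groups. With the choroid plexus or microglia score as a covariate, 0 genes rose or fell by either rule, among them 0 of the 8 genes and 0 other iron genes (at an unadjusted p under 0.05, 938 rose and 240 fell with the choroid plexus score, and 399 and 72 with the microglia score). The cause was not tested. DESeq2 called 1221 genes higher and 224 lower (7 with the fold limit), edgeR with DESeq2 size factors called 69 lower, and a minimum of 10 counts in every library left 2 lower with the fold limit, against 44 and 4 as reported. Leaving out each mouse in turn gave 355 (without void replicate 11) to 1073 (without void replicate 9) genes higher and 179 to 510 with the fold limit, 5 to 77 lower and 0 to 6 with the fold limit, 2 to 4 of the 8 genes and 5 to 10 other iron genes higher, and 0 lower of either.

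Directions turned only where values were small. The log2 fold change of Fth1 became -0.020 and that of Tfrc 0.12 with the microglia score. That of Slc40a1 became -0.023 with DESeq2 and -0.023 with its size factors in edgeR, -0.0081 with every gene of at least 1 count and -0.19 with the microglia score, and ran from -0.12 to 0.13 with 1 mouse left out. Slc40a1 minus endothelial became -0.0079 with the list median and ran from -0.055 to 0.064 with 1 mouse left out. Trf minus oligodendrocyte was 0.31 with the list median (adjusted p = 0.140 by exact permutation test).

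With 1 mouse left out, the differences were 0.69 to 0.94 for Slc11a1 and -0.73 to -0.49 for Slc40a1 minus microglia, -0.30 to -0.23 for Fth1 minus Ftl1, 0.31 to 0.47 for Trf minus oligodendrocyte (adjusted p above 0.05 each time) and -2.71 to -1.73 for Trf minus choroid plexus (adjusted p under 0.05 only without void replicate 9).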
